A study of Homo sapiens with 8 samples.

Results

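ATM belongs to the phosphatidylinositol 3-kinase-like kinases (PIKKs), a family of 6 very large proteins that are built like lipid kinases. The family's genes in the tables are ATM, ATR, PRKDC, MTOR, SMG1 and TRRAP. They were taken by symbol from the 15041 genes that the tables list in all, and each of the 6 was listed in 8 of 8 tables. ATM is recruited to DNA double-strand breaks by the MRE11-RAD50-NBN complex, ATR is recruited with ATRIP to single-stranded DNA coated by RPA, and PRKDC encodes the catalytic subunit of DNA-PK, which joins the Ku heterodimer (XRCC5 and XRCC6) at broken ends. MTOR is the kinase of the growth-controlling complexes mTORC1 and mTORC2, SMG1 phosphorylates UPF1 in nonsense-mediated mRNA decay, and TRRAP, which lacks kinase activity, is a scaffold of histone acetyltransferase complexes. All members depend on the TELO2-TTI1-TTI2 complex for their folding. The levels of these 6 transcripts were used to ask whether ATM was lower in the knockdown and whether its relatives differed too. They concern RNA within this family only, so they cannot show that ATM alone was lowered.

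The cells were of MDA-MB-231, an established human breast cancer line that lacks hormone receptors and HER2 amplification. The 4 groups of 2 libraries were untreated wild type (WT), WT harvested 4 h after 5 Gy of ionizing radiation, untreated cells with ATM knocked down, and ATM knockdown cells harvested 4 h after the same dose. Single cells were picked by hand, and 3' mRNA libraries were made from amplified whole transcriptomes. The sources used here give neither the knockdown reagent nor its target sequence, and they do not say whether the knockdown line is 1 clone or whether a group's libraries are from different cultures, so p-values measure the spread between these libraries only, which may be technical. The WT libraries share one title suffix and the knockdown libraries another, so that handling and genotype cannot be told apart.

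After filtering, 363 of 378 barcodes were kept, and the 15 left out were all from knockdown libraries. The libraries held between 9321268 (irradiated WT replicate 1) and 24256471 (untreated WT replicate 1) counts in kept cells. Mitochondrial genes took 9.36% to 10.3% of counts in WT and 10.2% to 11.96% in knockdown libraries. In counts scaled to a total of 1000000 per library (CPM), 6 markers of the line (VIM, CD44, AXL, MSN, LGALS1 and S100A4) were present in every library and summed to 12159 to 14040 CPM in WT and 8759 to 9921 CPM in the knockdown. VIM was higher in every knockdown library (1828 to 1862 against 2193 to 2944 CPM) and LGALS1 lower (3969 to 4792 against 1717 to 1978 CPM). Of 7 genes listed as low in this line, ESR1 and FOXA1 were not analysed here, PGR was at 0 in 7 of 8 libraries and CDH1 did not exceed 2.02 CPM. ERBB2 (8.06 to 25.5 CPM), GATA3 (35.7 to 54.8 CPM) and EPCAM were above 0 in every library, EPCAM at 15.5 to 30.4 CPM in WT and 48.2 to 61.3 CPM in the knockdown. The leukocyte marker PTPRC did not exceed 1.80 CPM. CD14, another leukocyte marker, lay between 40.9 and 104.7 CPM in WT and between 10.2 and 17.9 CPM in knockdown libraries. Levels below are CPM of the summed counts of a library. Because the libraries are from 3' ends and CPM is not scaled by length, levels are compared between libraries and not between genes.

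ATM was the member that fell with the knockdown. ATM (ENSG00000149311.18, chromosome 11, 108222484 to 108369102, plus strand, GRCh38) measured 57.9 and 31.1 CPM in untreated WT cells. Irradiated WT cells had 28.0 and 33.2 CPM. The knockdown had 13.8 and 33.0 CPM without irradiation and 13.0 and 14.0 CPM after it. Of the knockdown libraries, 3 lay below every WT library, and replicate 2 of the untreated knockdown lay inside the WT range. The WT mean was 37.5 ± 13.7 CPM and the knockdown mean 18.5 ± 9.68 CPM (SD, n = 4 libraries each).

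Over both treatments the log2 change of ATM, knockdown minus WT, was -1.12 (SE 0.294, 95% interval -1.74 to -0.49, adjusted p = 0.0168), a fall of 53.9%. This contrast was chosen with the values of the single treatments already known. In the same contrast 16.2% of the 12456 genes tested passed, and ATM ranked 1287 by p, so 1 call among 6 kinases is about what the whole transcriptome gave. The call rests on untreated WT replicate 1, the highest library: without it the log2 change was -0.87 (adjusted p = 0.0514). Summed G2/M expression (6 genes) was 2847 and 1238 CPM in untreated WT, 2476 and 1213 CPM in irradiated WT, 1681 and 2267 CPM in the untreated knockdown and 1138 and 912 CPM in the irradiated knockdown. It was highest in the WT library and in the knockdown library with the most ATM, and second highest of all 8 in irradiated WT replicate 1, the WT library with the least; its part in the ATM values was not tested.

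Within a treatment, the ATM differences were of like size and did not pass. The log2 change was -0.98 (SE 0.413, adjusted p = 0.157) in untreated cells, where 9.94% of genes passed, and -1.25 (SE 0.419, adjusted p = 0.109) in irradiated cells, where 5.1% passed. Single libraries moved the untreated value, to -1.72 (adjusted p = 0.0225) without knockdown replicate 2 and to -0.49 without either WT or knockdown replicate 1 (adjusted p = 0.612 and 0.570). After irradiation both knockdown libraries lay below both WT libraries in ATM, as held for 2820 of the 12456 genes tested. Counting either direction, 52.2% of genes did not overlap there. Without irradiation the ATM libraries of the genotypes overlapped, where 2993 genes were lower in this way and 51.6% did not overlap in either direction.

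**Figure D1:**
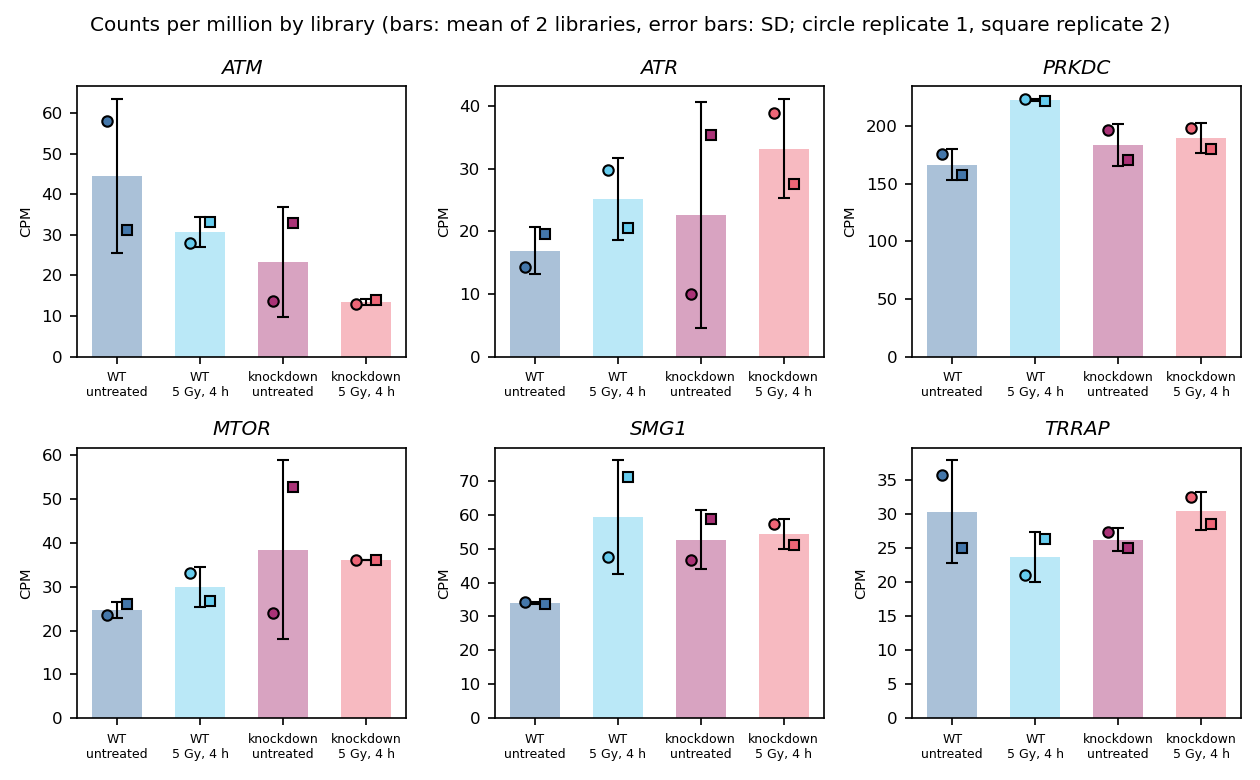
CPM of the 6 kinases in each library (y axis, linear, from 0) for the 4 groups (x axis); bars are the mean of 2 libraries, error bars the SD, circles replicate 1 and squares replicate 2. ATM is at 13.0 to 14.0 CPM in 3 of the 4 knockdown libraries and at 33.0 CPM in the remaining one, against 28.0 to 57.9 CPM in WT.

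Counted by cells, the genotypes separated fully. Because cells differ in depth, the share of cells with at least 1 count was computed at 69000 counts per cell, which 330 cells reached and 33 did not. ATM had a count in 69.4% and 56.4% of cells in the untreated WT libraries and in 58.7% and 51.5% in the irradiated WT libraries. In the knockdown, the shares were 27.0% and 36.9% without irradiation and 30.5% and 38.6% after it. All 4 knockdown libraries lay below all 4 WT libraries, including the untreated replicate whose summed level was not lower.

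The mean share of ATM-positive cells was 59.0% ± 7.57 in WT and 33.2% ± 5.44 in the knockdown (SD, n = 4 libraries each), a difference of -25.8 percentage points. An exact permutation test of genotype within treatment, two-sided, gave p = 0.0556, the smallest p its 36 arrangements allow, so the design cannot pass 0.05. Among 8335 genes found in an intermediate share of cells (10% to 90%), 8.57% had all 4 knockdown libraries below all 4 WT libraries, and ATM had the 118th most negative difference. Without a common depth, ATM had a count in 66.7% to 87.5% of cells in WT and in 44.2% to 58.1% in knockdown libraries. The exact (Clopper-Pearson) 95% interval of the lowest WT value, 32 of 48 cells, was 51.6% to 79.6%, and that of the highest knockdown value, 25 of 43 cells, 42.1% to 73.0%. Intervals of this kind cover only the sampling of cells, and single libraries therefore overlap in them.

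**Figure D2:**
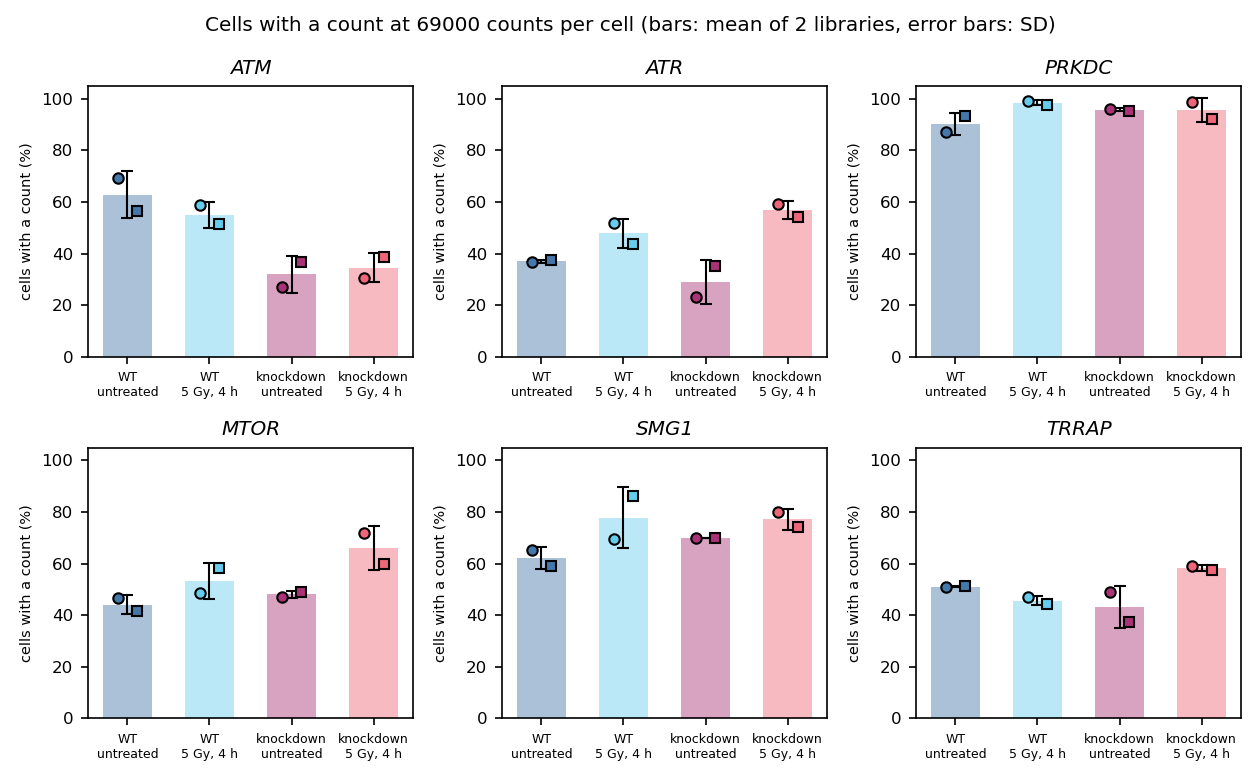
Percent of cells with at least 1 count at a common depth of 69000 counts (y axis, 0 to 100) in each library for the 4 groups (x axis); bars are the mean of 2 libraries and error bars the SD. ATM lies at 51.5% to 69.4% in WT and 27.0% to 38.6% in the knockdown, while the other 5 kinases overlap between genotypes when treatments are pooled. Among untreated libraries these 5 did not overlap: PRKDC, MTOR and SMG1 were higher in the knockdown, ATR and TRRAP lower. Among irradiated libraries ATR, MTOR and TRRAP were higher in the knockdown, and PRKDC and SMG1 overlapped. How many of all genes separated within a treatment by this measure was not counted. By CPM, 51.6% of the 12456 genes tested did not overlap between genotypes among untreated libraries, and 52.2% among irradiated ones. Separation of 2 against 2 libraries therefore does not mark these kinases out.

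A few cells held much of the remaining ATM transcript. The 3 cells with most ATM counts held 41.9% to 48.5% of a knockdown library's ATM counts and 26.1% to 38.7% of a WT library's. Such shares were not particular to ATM or to the knockdown. For ATR, the top 3 cells held 48.4% and 50.1% of its counts in untreated WT and 56.6% and 74.4% in the untreated knockdown. For PRKDC they held 19.0% to 32.4% over all libraries. In untreated knockdown replicate 2, the library level with WT, 1 cell held 24.9% of the ATM counts, and without that cell ATM was at 26.1 CPM. Of its 40 cells at full depth, 25 had no ATM count in a random thinning to 69000 and 4 had at least 10 counts. In untreated knockdown replicate 1, 26 of 33 cells had no count and 0 had at least 10. In untreated WT replicate 1, 14 of 43 cells had none and 6 had at least 10. At least 10 counts were seen in 2 of 46 cells of untreated WT replicate 2. In irradiated WT this held for 1 of 39 and 2 of 46 cells, and in the irradiated knockdown for 1 of 43 and 1 of 40. Among cells with a count, the median ATM count was 3.00 in WT and 2.62 in the knockdown as a mean over libraries (exact permutation p = 0.722), a measure that a minimum of 1 count limits from below.

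Averaging CPM over cells, which gives each cell the same weight, made ATM depend on shallow cells. Over cells at full depth, the mean was 38.4 ± 9.71 CPM in WT and 18.5 ± 9.19 CPM in the knockdown (SD, n = 4 libraries each; exact permutation p = 0.0556). Over all kept cells, the mean of untreated knockdown replicate 1 was 56.5 CPM against 11.9 CPM over its cells at full depth. A single cell with 20 ATM counts among 20932 had 955 CPM there. On the mean over all kept cells, the log2 change over both treatments was -0.52 in limma (adjusted p = 0.120).

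**Figure D3:**
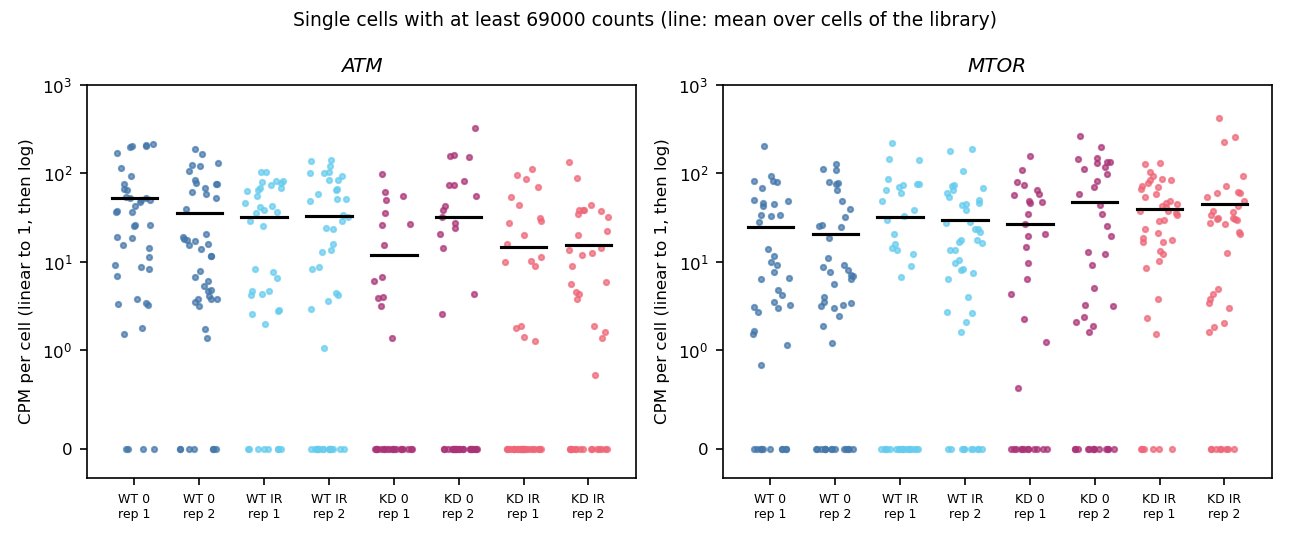
ATM and MTOR in single cells with at least 69000 counts (y axis, CPM per cell, linear up to 1 and logarithmic above), one column per library; WT 0 and KD 0 are untreated WT and knockdown, IR marks 5 Gy and rep the replicate, and lines mark the mean over cells. The mean lines of the 4 knockdown libraries for ATM lie between 11.9 and 32.1 CPM against 32.3 to 52.8 CPM in WT.

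None of the other 5 kinases passed the test in any contrast. Of the 12456 genes, those that passed made up 1.65% for irradiation in WT, 0.225% for irradiation in the knockdown and 0.185% for the difference between these responses. In the knockdown-minus-WT contrast over both treatments, 0 of the 5 passed at an adjusted p of 0.05, 0 had an unadjusted p under 0.05, and DESeq2 called 0 as well. Of all 12456 genes, 16.2% passed there, 3728 had an unadjusted p under 0.05, and DESeq2 called 2611. With such shares, 0 calls among 5 genes do not set these kinases apart from other genes. Their intervals over both treatments, given below, show which sizes of change these libraries leave possible. Within a single treatment the intervals were wider.

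ATR (ENSG00000175054.14, chromosome 3, 142449235 to 142578826, minus strand) was at 14.3 and 19.6 CPM in untreated WT, 29.8 and 20.6 CPM in irradiated WT, 9.94 and 35.4 CPM in the untreated knockdown and 38.8 and 27.6 CPM in the irradiated knockdown. Its untreated knockdown libraries were the lowest and the second highest of all 8, so the genotypes overlapped. Knockdown minus WT over both treatments, the log2 change was 0.34 (SE 0.339, 95% interval -0.38 to 1.06, adjusted p = 0.551). A single cell held 38.6% of the ATR counts of untreated knockdown replicate 2. The share of ATR-positive cells was 42.5% ± 7.08 in WT and 43.0% ± 16.8 in the knockdown (SD, n = 4; exact permutation p = 0.889). That share was higher in the irradiated than in the untreated libraries of each genotype, at 47.9% ± 5.66 against 37.0% ± 0.511 in WT and 56.8% ± 3.46 against 29.2% ± 8.53 in the knockdown (n = 2 each), which was not tested apart from the fit on summed counts. In that fit irradiation gave log2 changes of 0.59 (SE 0.482, adjusted p = 0.637) in WT and 0.56 (SE 0.479, adjusted p = 0.797) in the knockdown. The last exon of ATR holds a processed pseudogene of 2048 bases on the other strand, and the sources used here do not say how reads shared by overlapping genes were counted.

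PRKDC (ENSG00000253729.7, chromosome 8, 47773108 to 47960183, minus strand) had the smallest standard error of the 6. It was at 176 and 157 CPM in untreated WT, 223 and 221 CPM in irradiated WT, 196 and 171 CPM in the untreated knockdown and 199 and 180 CPM in the irradiated knockdown. All knockdown libraries lay between the untreated and the irradiated WT libraries or within the untreated range. Over both treatments the log2 change with knockdown was -0.11 (SE 0.117, 95% interval -0.36 to 0.14, adjusted p = 0.589), so that a rise of more than 10.2% lay outside the interval. In untreated cells alone it was 0.09 (SE 0.165, adjusted p = 0.805), with an interval that reached a rise of 35.4%. After irradiation both knockdown libraries lay below both WT libraries in PRKDC, as held for 2820 of the 12456 genes tested. The log2 change there was -0.30 (SE 0.165, unadjusted p = 0.0875), which did not pass after adjustment. Its interval reached a fall of 36.5%. PRKDC had a count in 94.4% ± 5.44 of WT and 95.7% ± 2.77 of knockdown cells (SD, n = 4; exact permutation p = 0.611).

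MTOR (ENSG00000198793.12, chromosome 1, 11106535 to 11262507, minus strand) had the largest upward estimate among the 5. It was at 23.5 and 25.9 CPM in untreated WT, 33.0 and 26.6 CPM in irradiated WT, 23.9 and 52.8 CPM in the untreated knockdown and 36.1 and 36.04 CPM in the irradiated knockdown. The irradiated knockdown libraries were above both irradiated WT libraries, as held for 3684 of the 12456 genes tested, and the untreated libraries overlapped. The log2 change over both treatments was 0.39 (SE 0.253, 95% interval -0.15 to 0.93, adjusted p = 0.331), which leaves up to 1.90-fold more MTOR possible. In untreated cells alone it was 0.57 (SE 0.359, adjusted p = 0.352), with an interval that reached 2.53-fold. In irradiated cells alone it was 0.20 (SE 0.359, adjusted p = 0.832), with an interval that reached 1.96-fold. Over cells at full depth, mean MTOR was 26.8 ± 5.01 CPM in WT and 39.3 ± 8.98 CPM in the knockdown (SD, n = 4; exact permutation p = 0.0556, the smallest possible). MTOR had a count in 48.7% ± 6.98 of WT and 57.0% ± 11.5 of knockdown cells at full depth (exact permutation p = 0.0556). The libraries overlapped with treatments pooled, though not within either treatment, where the share of all genes that separated was not counted. Among untreated libraries the gap was small, from 46.6% in WT to 47.1% in the knockdown. The difference in share was 8.29 percentage points, against 10.9 (exact permutation p = 0.333) in 1 random thinning and 4.59 (p = 0.722) with no common depth. These were among 42 permutation tests, 7 measures for each of 6 kinases, of which 9 reached the smallest p: 6 for ATM and 3 for MTOR. After Benjamini-Hochberg adjustment over the 42 no value can fall below 0.05, since no raw p does.

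SMG1 (ENSG00000157106.16, chromosome 16, 18804853 to 18926454, minus strand) was at 34.2 and 33.8 CPM in untreated WT and at 47.5 and 71.1 CPM in irradiated WT. In the knockdown it was at 46.6 and 58.8 CPM without irradiation and at 57.4 and 51.2 CPM after it. The untreated WT libraries were thus the lowest of the 8. SMG1 differed by 0.57 log2 between untreated knockdown and untreated WT (SE 0.268, unadjusted p = 0.0486, adjusted p = 0.207). Over both treatments the log2 change with knockdown was 0.19 (SE 0.189, 95% interval -0.21 to 0.59, adjusted p = 0.555). SMG1 had a count in 70.01% ± 11.6 of WT and 73.5% ± 4.73 of knockdown cells (SD, n = 4; exact permutation p = 0.556). The annotation names 7 SMG1 pseudogenes, none of which is in these coding-gene tables, so SMG1 counts carry the added uncertainty of near-identical copies.

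TRRAP (ENSG00000196367.12, chromosome 7, 98877933 to 99050831, plus strand) was at 35.7 and 25.1 CPM in untreated WT, 21.1 and 26.4 CPM in irradiated WT, 27.5 and 25.1 CPM in the untreated knockdown and 32.5 and 28.6 CPM in the irradiated knockdown. The untreated libraries overlapped between genotypes. The irradiated knockdown libraries were above both irradiated WT libraries, as held for 3684 of the 12456 genes tested. The log2 change over both treatments was 0.01 (SE 0.231, 95% interval -0.48 to 0.51, adjusted p = 0.991), and the share of TRRAP-positive cells was 48.4% ± 3.32 in WT and 50.8% ± 9.97 in the knockdown (SD, n = 4; exact permutation p = 0.889). Its last exon shares 346 bases with SMURF1 on the other strand. SMURF1 was at 17.6 to 20.7 CPM in WT and 27.8 to 35.2 CPM in the knockdown (log2 change 0.62, SE 0.236, adjusted p = 0.0912).

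**Figure D4:**
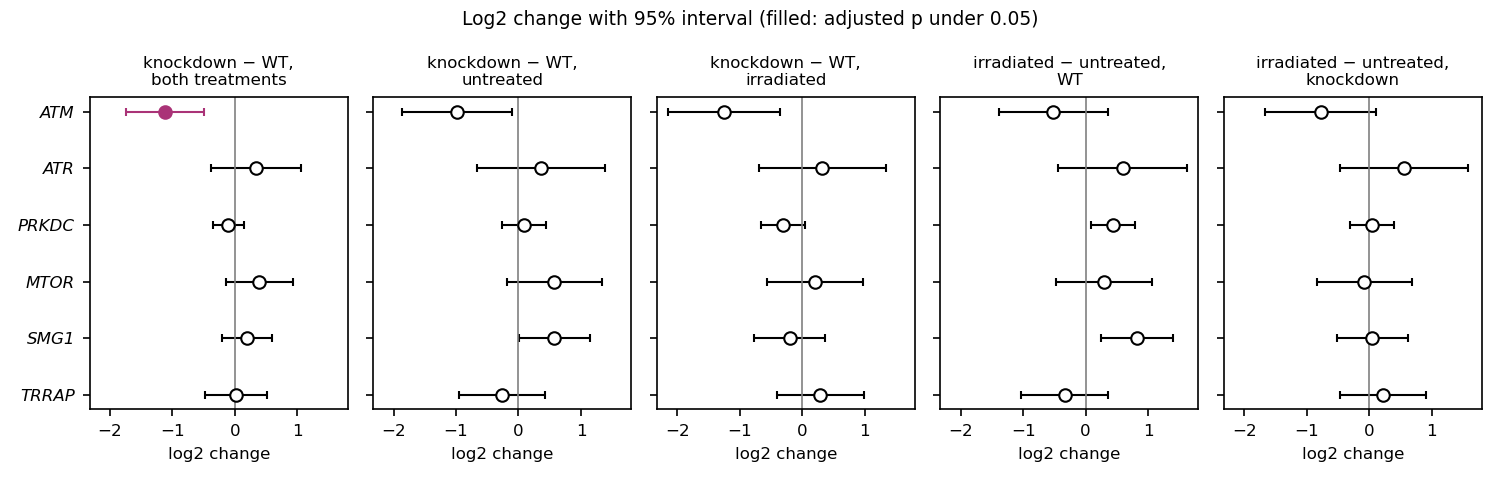
Log2 change of each kinase (x axis) with its 95% interval in 5 contrasts from edgeR; filled points passed an adjusted p of 0.05. ATM over both treatments, at -1.12, is the only filled point.

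Set against each relative within the same library, ATM was lower in the knockdown. The log2 ratio of ATM to MTOR counts lay between -0.24 and 1.30 in the WT libraries and between -1.47 and -0.68 in the knockdown, with no overlap. Its mean difference was -1.49. The differences were -1.37 against ATR, -1.34 against SMG1 and -1.04 against PRKDC, each with overlapping libraries. All 4 gave an exact permutation p of 0.0556, the smallest possible, while the ratio to TRRAP differed by -1.17 (exact permutation p = 0.111). These 5 ratios share their numerator and are not independent of each other or of the fall of ATM itself.

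At 4 h after irradiation, 0 of the 6 kinases had passed the threshold in either genotype. In WT, 4 of the 6 (ATR, PRKDC, MTOR and SMG1) were higher in both irradiated libraries than in either untreated one. In the knockdown 1 of 6 (TRRAP) was. Of the 12456 genes tested, 2603 in WT and 2544 in the knockdown were higher in this way. Counting either direction, 43.9% and 39.5% did not overlap. The smallest p-values in WT were those of SMG1, with a log2 change of 0.83 (SE 0.269, unadjusted p = 0.00775, adjusted p = 0.156), and PRKDC, with 0.44 (SE 0.166, unadjusted p = 0.0180, adjusted p = 0.227). In the knockdown the same genes gave 0.05 (SE 0.267, adjusted p = 0.987) and 0.05 (SE 0.165, adjusted p = 0.976). The difference between the responses was -0.77 for SMG1 (SE 0.378, adjusted p = 0.548) and -0.39 for PRKDC (SE 0.234, adjusted p = 0.634), so a different response of the genotypes was not shown. In WT, 7 S-phase genes summed to 755 and 789 CPM without irradiation and to 1217 and 1891 CPM with it, against 1015 and 957 CPM and then 1214 and 1129 CPM in the knockdown; their part in the kinase levels was not tested. ATM itself changed by -0.51 (SE 0.410, adjusted p = 0.630) in WT and by -0.78 (SE 0.415, adjusted p = 0.622) in the knockdown, a difference of -0.26 (SE 0.581, adjusted p = 0.936).

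The partners of the kinases were followed in 9 lists, which were chosen with earlier results of these data known. Of the 123 genes tested in them, counting each once, 6 rose and 10 fell over both treatments, or 13.0%, against 16.2% of all genes. The median log2 change of these genes was 0.03, against -0.01 over all genes. The lists as a whole were therefore called no more often than the transcriptome.

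For ATM, 0 of 15 tested activation and signalling partners passed in either direction (median log2 change -0.07). NBN, the subunit of the break-sensing complex that binds ATM, was at 64.8 to 104 CPM in WT and 103 to 115 CPM in the knockdown (log2 change 0.25, SE 0.149, adjusted p = 0.286). It passed in 3 of the alternative settings, with log2 changes of 0.60 without the largest cells, 0.56 on thinned counts and 0.58 on the mean CPM per cell (adjusted p = 0.0300, 0.0188 and 0.0122). MRE11, the nuclease of the complex, changed by -0.41 (SE 0.231, adjusted p = 0.255). RAD50 had at most 5.05 CPM in any library, too few counts to place. CHEK2, the kinase that ATM activates, changed by 0.34 (SE 0.395, adjusted p = 0.619).

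Among the ATR partners 1 of 16 rose and 3 fell (median log2 change -0.01). CHEK1, the effector kinase of ATR, was at 56.1, 30.5, 77.4 and 76.5 CPM in the WT libraries and at 29.8 to 35.2 CPM in the knockdown libraries. It fell by 0.85 on the log2 scale (SE 0.209, adjusted p = 0.0114), and without untreated WT replicate 1 the adjusted p was 0.0537. Its fall was -1.23 (SE 0.298, adjusted p = 0.0256) among irradiated libraries, a call lost without any 1 of these 4 libraries (adjusted p of 0.0742 to 0.136), and -0.47 (SE 0.295, adjusted p = 0.3598) among untreated ones. RPA3, the smallest subunit of RPA, fell from 258 ± 27.9 to 196 ± 15.6 CPM (SD, n = 4 each; adjusted p = 0.0113, and 0.0636 without irradiated knockdown replicate 1). CDC25A, a phosphatase that CHEK1 marks for destruction, rose from 11.2 ± 5.23 to 26.9 ± 9.10 CPM (n = 4 each), a log2 change of 1.21 (SE 0.321, adjusted p = 0.0175). That call was lost without irradiated knockdown replicate 1 (adjusted p = 0.0520) and without the largest cells, those with over 2 times the median total of their library (adjusted p = 0.135). The ATR activator TOPBP1 changed by 0.17 (SE 0.207, adjusted p = 0.630), and ATRIP had too few counts to be tested. CLSPN, the adaptor that presents CHEK1 to ATR, rose with irradiation in WT, from 78.5 and 53.8 to 115 and 219 CPM, a log2 change of 1.36 (SE 0.259, adjusted p = 0.0195), as did RAD1, a subunit of the 9-1-1 clamp, from 49.6 and 34.2 to 79.2 and 112 CPM, a log2 change of 1.21 (SE 0.251, adjusted p = 0.0301). Neither passed without irradiated WT replicate 2 or in a fit of the WT libraries alone, and RAD1 also did not pass without untreated WT replicate 2 or in limma on the mean CPM per cell (adjusted p = 0.0556). In the knockdown CLSPN was at 133 and 128 CPM untreated and 174 and 160 CPM irradiated. RAD1 was there at 58.3 and 59.7 CPM, then 75.3 and 76.2 CPM. Among untreated libraries CLSPN was higher in the knockdown than in WT (log2 change 0.93, SE 0.257, adjusted p = 0.0321), a call lost in 2 alternative runs.

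For DNA-PK, 0 of 10 tested partners passed (median log2 change -0.04). The Ku subunits were well measured: XRCC5 changed by -0.03 (SE 0.101, adjusted p = 0.909) and XRCC6 by -0.17 (SE 0.104, adjusted p = 0.295). XRCC5 was at 274 and 274 CPM in untreated and 381 and 347 CPM in irradiated WT, and at 308 to 344 CPM in the knockdown. As with PRKDC, the knockdown libraries lay between the untreated and irradiated WT libraries.

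The mTOR list had 3 genes that rose and 2 that fell among 21 tested (median log2 change 0.07). RRAGD, a Rag GTPase that brings mTORC1 to the lysosome, rose from 18.2 ± 9.11 to 43.4 ± 8.59 CPM (n = 4 each), a log2 change of 1.20 (SE 0.283, adjusted p = 0.00873) and kept its call in every alternative run. SESN2, a leucine sensor that restrains mTORC1, rose from 6.60 ± 3.26 to 19.9 ± 10.4 CPM, a log2 change of 1.61 (SE 0.400, adjusted p = 0.0120), which without untreated knockdown replicate 1 was an adjusted p of 0.0697. RICTOR, the defining subunit of mTORC2, fell from 54.2 ± 15.3 to 34.5 ± 1.93 CPM, a log2 change of -0.70 (SE 0.207, adjusted p = 0.0310), and AKT1S1, an inhibitory subunit of mTORC1, from 43.2 ± 5.22 to 28.4 ± 7.30 CPM, a log2 change of -0.68 (SE 0.214, adjusted p = 0.0429). Both falls were lost on thinned counts, that of RICTOR also in limma on the mean CPM per cell (adjusted p = 0.0953), and that of AKT1S1 also without scaling (adjusted p = 0.0680) and without the largest cells (adjusted p = 0.117). RICTOR also did not pass when any of 5 libraries was left out (all but untreated WT replicate 2, irradiated WT replicate 1 and untreated knockdown replicate 1), with adjusted p of 0.0638 to 0.195. AKT1S1 did not pass without any of 6 libraries (all but untreated WT replicate 1 and irradiated knockdown replicate 1), with adjusted p of 0.0674 to 0.206. RPTOR, the defining subunit of mTORC1, changed by 0.50 (SE 0.527, adjusted p = 0.581).

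In the decay list of SMG1, 1 of 13 rose and 1 fell (median log2 change 0.15). UPF3A rose from 81.9 ± 13.4 to 129 ± 8.17 CPM (n = 4 each), a log2 change of 0.60 (SE 0.137, adjusted p = 0.00694), and RBM8A, a core subunit of the exon junction complex, fell from 326 ± 69.2 to 227 ± 40.2 CPM, a log2 change of -0.59 (SE 0.119, adjusted p = 0.00344). Both calls held in every alternative run. UPF1, the helicase that SMG1 phosphorylates, changed by 0.35 (SE 0.212, adjusted p = 0.286). Among TRRAP complexes 0 of 24 rose and 1 fell (median log2 change -0.05), the acetyltransferase gene KAT2B, from 43.4 ± 9.63 to 25.3 ± 9.91 CPM, a log2 change of -0.87 (SE 0.226, adjusted p = 0.0151), a call that was lost without replicate 2 of irradiated WT (adjusted p = 0.0568) or of irradiated knockdown (adjusted p = 0.0530), without the largest cells (log2 change -0.44, adjusted p = 0.324) and in limma on the mean CPM per cell (log2 change -0.69, adjusted p = 0.0505).

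The maturation list, which serves all members, had the highest share of calls among the 9 lists: 1 of 10 rose and 3 fell (median log2 change 0.14). Of all genes tested 16.2% passed. The share of this list, the highest of 9 small ones, was not tested against that of all genes. The HSP90 isoforms that this machinery works with moved in opposite directions. HSP90AB1 rose from 1539 ± 123 to 2156 ± 182 CPM (n = 4 each), a log2 change of 0.42 (SE 0.0778, adjusted p = 0.00181), while HSP90AA1 fell from 1397 ± 30.3 to 1014 ± 164 CPM, a log2 change of -0.54 (SE 0.0832, adjusted p = 0.000457), in both cases in every alternative run; these genes have near-identical copies elsewhere in the genome, so reads may have been split. PIH1D1, the R2TP subunit that binds TELO2, fell from 136 ± 12.5 to 92.0 ± 14.1 CPM, a log2 change of -0.62 (SE 0.143, adjusted p = 0.00739). Its change was -0.37 on thinned counts (adjusted p = 0.105), -0.36 without the largest cells (adjusted p = 0.135) and -0.25 in limma on the mean CPM per cell (adjusted p = 0.278). TELO2 itself had few counts, 1.73 to 7.62 CPM in WT and 8.95 to 15.5 CPM in the knockdown (log2 change 1.32, SE 0.445, adjusted p = 0.0559). These ranges did not overlap, but how many of all genes separated in this way was not counted. TELO2 passed in 3 alternatives, among them without untreated WT replicate 2 (log2 change 1.69). TTI1 changed by 0.16 (SE 0.367, adjusted p = 0.819). The 9 other phosphatidylinositol 3-kinase genes gave 0 calls.

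**Figure D5:**
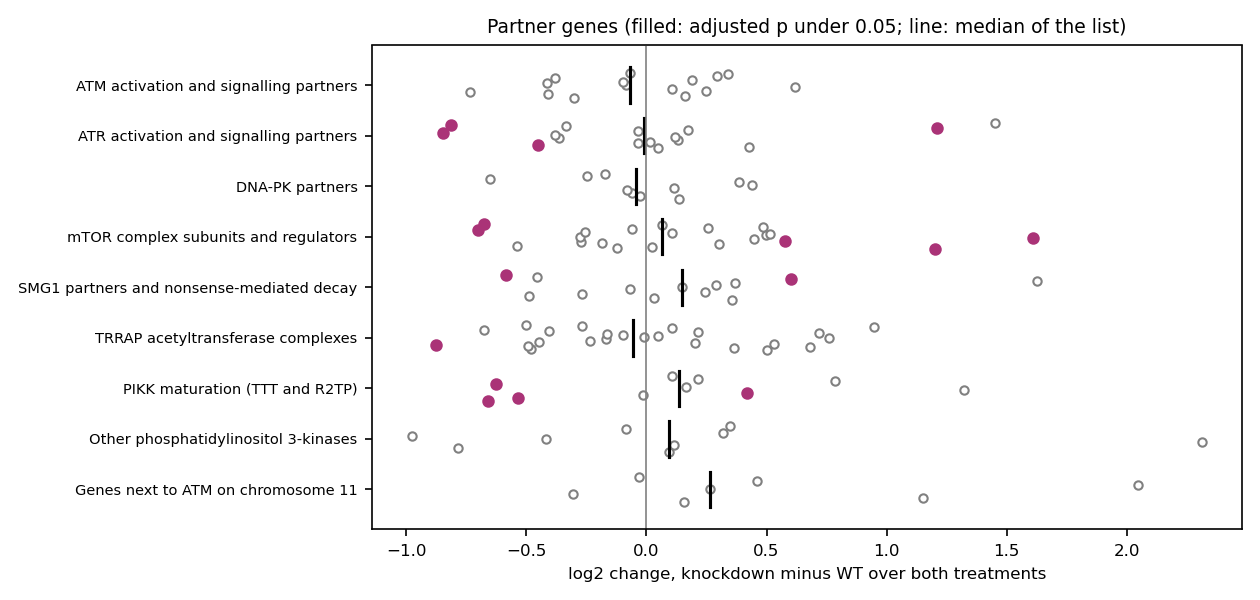
Log2 change, knockdown minus WT over both treatments (x axis), of each tested gene of the 9 lists (rows); filled points passed an adjusted p of 0.05 and vertical lines mark the median of a list. The filled points, 6 genes above 0 and 10 below, lie in 5 of the 9 lists, and none belongs to the ATM or DNA-PK partners.

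The genes that flank ATM were examined because ATM shares a start region with NPAT, which lies on the opposite strand (143 exonic bases in common), and overlaps C11orf65 (114 exonic bases); neither overlap falls in the last exon of ATM. Of 7 neighbours tested, 0 passed (median log2 change 0.26). NPAT, a coactivator of histone genes, was at 59.2, 34.996, 56.001 and 56.7 CPM in WT and at 53.8, 16.0, 63.8 and 44.4 CPM in the knockdown (log2 change -0.31, SE 0.301, adjusted p = 0.548). Without untreated knockdown replicate 1 it passed, at -0.87 (adjusted p = 0.0135). Its lowest value was in untreated knockdown replicate 2, where ATM was highest among the knockdown libraries. C11orf65 was at 0 in replicate 1 of both knockdown groups and at 55 and 23 counts in replicate 2, against 1 to 8 counts in WT.

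The genes whose levels followed ATM most closely over the 8 libraries were SRGAP2C (Pearson r = 0.973), STK3 (0.961), CASK (0.957), FAM20C (0.9497) and TAF8 (0.947), out of 5031 genes compared on log2(CPM + 1). These are descriptions: they are the highest of 5031 values, and the points share library and genotype. SRGAP2C belongs to a set of near-identical gene copies, and its counts are uncertain for that reason. STK3, a kinase of the Hippo pathway, was at 61.2, 43.7, 47.2 and 48.3 CPM in WT and at 19.4, 51.7, 22.0 and 25.4 CPM in the knockdown, with the same untreated knockdown library high as for ATM.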

How the data were processed

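The authors deposited whole-number counts per coding gene and cell, 1 table per library. Per the submitters' processing notes, Trimmomatic 0.36, HISAT2 2.1.0, HTSeq 0.9.1 and the hg38 build were used. Whether counts are reads or molecules and whether counting used the strand are not given in the sources used here. Cells with at least 1000 genes and 5000 counts were kept, counts were summed per library, genes that a table does not list were set to 0, and doublets were not called because cells were picked singly. CPM is per library total.

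The quasi-likelihood test of edgeR 4.0.16 (R 4.3.3) was run on genes that filterByExpr kept, with TMM scaling, 4 groups in 1 fit, with Benjamini-Hochberg adjustment over 12456 genes at 0.05; the common biological coefficient of variation was 0.458 and 4 degrees of freedom remained. On simulated counts of the knockdown-minus-WT contrast over both treatments (12171 genes), 87% of 2-fold and 100% of 4-fold changes were recovered with 10 false calls, and there were 0 calls with no change. Only genes averaging 5 or more in log2 CPM were given a change in that test; ATM (4.82), ATR (4.62) and TRRAP (4.80) lie below. DESeq2 1.42.0 and limma 3.58.1 served as alternatives. The share of cells with a count at 69000 counts is the expectation over all random thinnings, which replaced a planned single thinning after its values were seen to vary between draws; the single thinning is an alternative added after seeing the data. Positions came from GENCODE 29 (GRCh38); TRRAP matched with another version of its identifier.

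The members, lists and contrasts were chosen with earlier results of these data known. Named genes are the 6 kinases in every contrast, up to 2 genes per list and direction with the smallest p among those that passed, a fixed set of partners (NBN, MRE11, RAD50, ATRIP, TOPBP1, XRCC5, XRCC6, RPTOR, RICTOR, UPF1, TELO2, TTI1, CHEK1, CHEK2, NPAT, C11orf65; 1 further gene of this set is not reported here) and the 5 genes most correlated with ATM among genes averaging 5 or more in log2 CPM. SMURF1 was named after its values were seen, for its overlap with TRRAP.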

Additional observations from a re-analysis of the deposited data

How the results depend on the processing

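The kinase log2 changes were recomputed under up to 19 alternative settings per contrast, 708 values in all. Of these, 697 stayed on their side of the threshold, 2 lost it, 9 gained it and 0 turned with a call. Among the 697, 46 changed sign with neither value past the threshold, ATM in untreated cells among them (0.17 in limma on the mean CPM per cell, adjusted p = 0.785). The 2 losses were ATM over both treatments in limma on the mean CPM per cell (-0.52, adjusted p = 0.120) and without untreated WT replicate 1. ATM among irradiated libraries passed with no filter on low counts (-1.25, adjusted p = 0.0205), in a fit of those groups alone (-1.25, adjusted p = 0.0401), without cells above 2 times the median total (-1.77, adjusted p = 0.0139) and in limma on the mean CPM per cell (-1.22, adjusted p = 0.0314). By that last measure, taken over all kept cells including shallow ones, ATM in the knockdown passed as lower after irradiation (-1.75, adjusted p = 0.0157). Over cells at full depth the knockdown libraries overlapped, at 11.9 and 32.1 CPM untreated and 14.6 and 15.5 CPM irradiated. The cause of these changes between settings was not tested.

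With each library left out in turn, the ATM change over both treatments ranged from -1.49 to -0.87, that among untreated libraries from -1.72 (adjusted p = 0.0225, without untreated knockdown replicate 2) to -0.49, and that among irradiated libraries from -1.35 to -1.13. Where 1 library was left in a group, it was assumed to vary like the others. The irradiation response of ATM ranged from -0.88 to -0.03 in WT and from -1.28 to -0.05 in the knockdown, and the difference in responses from -0.76 to 0.47. The ATM share difference ranged from -28.3 to -22.3 percentage points, and the log2 ratio of ATM to MTOR from -1.70 to -1.19. Permuted over all 8 libraries (70 arrangements), the exact p was 0.0286 for the share difference of -25.8 and for the ratio to MTOR of -1.49. The number of the other 5 kinases called, knockdown minus WT over both treatments, was 0 in each alternative. No paired analysis was possible because the labels give no replicate numbers; those used here follow the order of deposit and only name the libraries.

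Counts of all genes past the threshold moved by more than 1.5 times in 4 contrasts and for the difference of responses. Among irradiated libraries 635 became 1088 with DESeq2's Wald test and 1044 with no filter, and among untreated libraries 1238 became 718 in a fit of those groups alone. For irradiation in WT, 205 became 33 (groups alone), 130 (without the largest cells), 317 (average CPM of at least 10), 534 (no filter) and 569 (DESeq2). In the knockdown, 28 became 54 to 236, and the difference of responses went from 23 to between 35 and 195. With a library left out, counts ranged from 1520 to 2094 over both treatments, 965 to 1390 and 308 to 980 for the genotype without and with irradiation, 89 to 376 for irradiation in WT, with 44 as the lowest count for irradiation in the knockdown, and 31 to 128 for the difference. A gene with no count in a library has an upper limit of 3 counts, or 0.124 to 0.322 CPM by library, for counting error only.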
